A study of Homo sapiens with 24 samples.

Results

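The S100A genes encode small calcium-binding proteins, and 8 of them were followed here in glioblastoma cells: S100A2, S100A3, S100A4, S100A6, S100A10, S100A11, S100A13, and S100A16. They are the entries whose Ensembl identifier, without its version, matches one of these symbols, and the symbols were picked with earlier results of these data known. This gave 8 of the 43037 genes in the deposited values. Values are CPM, tags per 1000000 tags of the library. All 8 reached 5 CPM in at least 1 library and were therefore among the 12327 genes tested.

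S100 proteins carry a pair of EF-hands, the loops that bind calcium, and most work as dimers. Binding of calcium opens a surface through which they attach to partners such as annexins and myosin, and some of them also act outside the cell. S100B is a classical marker of glial cells, whereas several S100A genes are known for their part in cell motility and growth.

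Cap analysis gene expression (CAGE-Seq) counts the capped 5′ ends of RNA, so 1 tag stands for the start of 1 transcript and gene length does not enter the value. The libraries came from DBTRG-05MG, T98G, U87MG, and U251MG, 4 lines used as models of glioblastoma. The paper gives the patient origin of its U87MG as unknown. Each line had a “Vec” variant and a “WWOX” variant with 3 biological replicates, which makes 8 groups and 24 libraries. The comparison asked how raised expression of the tumor suppressor WWOX alters each line. Between 10756072 and 16953689 tags on genes stood behind each library, with a median of 14584829.

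In every line, “Vec” cells had received Puro-Blank lentivirus and “WWOX” cells the GIPZ construct pLenti-GIII-CMV-GFP-2A-Puro, in which a viral CMV promoter drives WWOX and GFP is carried along. Both variants were selected with puromycin. T98G was grown in MEM, DBTRG-05MG in RPMI-1640, and U87MG and U251MG in EMEM, so line and medium cannot be told apart except between U87MG and U251MG. No source used here states that replicates came from separate transductions, and p values therefore measure the spread between these libraries. Where a value is lower in such bulk libraries, fewer cells of a type and less RNA per cell cannot be told apart.

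The lines carried glial and glioblastoma markers unevenly. CD44, a hyaluronan receptor, lay between 807 and 2880 CPM in the group means, and the intermediate filament gene VIM between 14.9 and 60.4 CPM. GFAP, the astrocyte filament gene, averaged 2655 CPM in “Vec” cells of U251MG but 4.34 in U87MG, 1.99 in T98G, and 2.01 in DBTRG-05MG. S100B was likewise highest in U251MG, with 254 CPM in “Vec” against 8.88 in DBTRG-05MG, 0.506 in U87MG, and 0.0987 in T98G. U251MG was thus the only line in which both astrocyte genes were abundant. Of the other markers listed, SOX2 averaged 98.1 CPM in “Vec” cells of U251MG and 47.0 in DBTRG-05MG, but 0.0707 in U87MG and 0.360 in T98G. NES averaged 94.0, 38.9, 1.93, and 0.185 CPM in the same order. OLIG2 was low in every line, with no group mean above 3.04 CPM and 0.0494 in “Vec” cells of U251MG.

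Defining markers of other cell types were near 0. PTPRC of leukocytes did not exceed 0.0930 CPM in any library, PECAM1 of endothelium 0.232, and EPCAM of epithelia 0.914. Over the group means, the 4 immune markers summed to between 0.0393 and 10.9 CPM, mostly CSF1R in U87MG, the 3 endothelial ones to between 0.0247 and 12.5, and the 4 epithelial ones to between 0.138 and 1.99. CDH5, an endothelial cadherin, was the one marker called, from 2.84 ± 0.908 to 8.26 ± 4.47 CPM in U251MG, with log2FC 1.28 and an adjusted p of 0.0132 in limma, a call that edgeR, limma-voom, and DESeq2 did not make and that was lost without replicate 2 or 3 of U251MG “Vec” or replicate 1 of “WWOX”. Without the 3 libraries described below as standing apart, its log2FC was 1.01 (adjusted p = 0.166 from limma). None of the 6 glial markers tested was called in any line by these 4 tools, and none had an unadjusted p under 0.05 in limma.

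WWOX itself was read as a check of the labels. In U87MG it measured 40.1, 33.9, and 39.8 CPM in “Vec” and 66.0, 61.3, and 61.0 in “WWOX”. In DBTRG-05MG it measured 20.4, 22.2, and 21.3 CPM in “Vec” and 31.97, 28.2, and 28.0 in “WWOX”. The variants were separate in both of these lines. In T98G the values were 38.6, 57.2, and 34.2 CPM in “Vec” and 45.1, 61.8, and 59.95 in “WWOX”. In U251MG they were 31.4, 36.8, and 32.1 CPM in “Vec” and 56.7, 17.4, and 38.0 in “WWOX”. Here the variants overlapped, because replicate 2 of T98G “Vec” lay among the “WWOX” libraries and replicate 2 of U251MG “WWOX” lay under every “Vec” library. The log2FC of WWOX was 0.66, 0.38, -0.01, and 0.39 in U87MG, T98G, U251MG, and DBTRG-05MG, and none passed the threshold (adjusted p from limma 0.136, 0.553, 1.00, and 0.770). DESeq2 called it in U87MG (adjusted p = 0.0470). In U251MG the value changed sign with the scaling and lay at 0.01 for CPM as deposited. Whether tags that begin in the construct are counted for WWOX is not stated. According to the paper, the efficiency of transduction was established by Western blot, which measures protein and not RNA.

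Among the 24 libraries, 3 stood apart and matter for the S100A genes: replicate 2 of T98G “Vec” and replicates 1 and 2 of U251MG “WWOX”. They were picked after the values of WWOX, of the S100A genes, and of all genes had been seen. Over all genes tested, the replicates of U251MG “WWOX” correlated with each other at 0.880 to 0.932 and those of T98G “Vec” at 0.940 to 0.989, where no other group had a pair below 0.958. Calls of S100A genes for “WWOX” versus “Vec” are given with and without them. The means of “Vec” cells and the differences between “Vec” lines include replicate 2 of T98G “Vec” unless stated. Without them WWOX was called in U87MG with log2FC 0.66 (adjusted p = 0.0114 from limma). A call gained by leaving them out is no independent evidence, since the S100A values took part in the choice.

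All 8 genes lie on the minus strand of chromosome 1 (hg38, GENCODE 44), in a cluster known for S100 genes. S100A10 (ENSG00000197747.9) spans chr1:151982915-151993859 and S100A11 (ENSG00000163191.6) chr1:152032506-152047907. The other 6 begin 1487 kb further on and share a stretch of 96.8 kb. It holds S100A6 (ENSG00000197956.10) at chr1:153534599-153536244, S100A4 (ENSG00000196154.12) at chr1:153543613-153550136, S100A3 (ENSG00000188015.10) at chr1:153547329-153549258, and S100A2 (ENSG00000196754.13) at chr1:153561108-153567890. S100A16 (ENSG00000188643.11) at chr1:153606886-153613145 and S100A13 (ENSG00000189171.15) at chr1:153618787-153631360 close it. S100A3 lies wholly inside the annotated span of S100A4 on the same strand, and another gene overlaps S100A13 on its strand, so the division of tags is uncertain for these. S100A1 overlaps S100A13 on the opposite strand, and genes without a common name overlap S100A6 and S100A11 there. Whether tags were counted by strand is not given in the sources used here.

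CAGE-Seq reads where transcripts start, but the deposited values are per gene and do not say which start the tags came from. The sequence before a start annotated in RefSeq is shown for 4 genes. These are the abundant S100A6 and S100A10, and S100A4 and S100A2 whose first windows hold other words. RefSeq (GRCh38.p14) gave 12 windows, at least 1 for each of the 8 genes. For S100A2 the first of its 2 windows is printed, and the second holds none of the words. Each run holds 250 bases before the start on the minus strand, 5′ to 3′, and capitals mark matches on either strand to words known from promoters. The word searched for the TATA box was TATAAA. For the factor AP-1 it was TGANTCA, for the GC box it was GGGCGG, and for the factor NF-Y it was CCAAT. They lie at chr1:153535992-153536241 for S100A6, chr1:151993860-151994109 for S100A10, chr1:153545807-153546056 for S100A4, and chr1:153565845-153566094 for S100A2.
S100A6: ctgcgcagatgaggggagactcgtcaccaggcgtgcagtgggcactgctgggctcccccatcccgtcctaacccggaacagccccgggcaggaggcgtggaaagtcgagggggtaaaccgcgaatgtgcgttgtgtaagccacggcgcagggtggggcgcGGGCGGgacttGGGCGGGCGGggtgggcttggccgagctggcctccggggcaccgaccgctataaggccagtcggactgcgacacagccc
S100A10: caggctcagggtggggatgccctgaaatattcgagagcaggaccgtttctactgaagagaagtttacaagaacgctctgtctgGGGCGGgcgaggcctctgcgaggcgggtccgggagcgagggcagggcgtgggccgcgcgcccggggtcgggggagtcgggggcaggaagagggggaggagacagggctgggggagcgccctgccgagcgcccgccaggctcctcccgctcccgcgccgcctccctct
S100A4: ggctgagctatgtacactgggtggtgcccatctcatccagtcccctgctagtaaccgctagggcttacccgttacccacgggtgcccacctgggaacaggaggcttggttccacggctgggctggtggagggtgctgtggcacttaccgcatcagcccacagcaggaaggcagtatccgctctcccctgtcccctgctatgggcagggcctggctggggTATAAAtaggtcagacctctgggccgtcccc
S100A2: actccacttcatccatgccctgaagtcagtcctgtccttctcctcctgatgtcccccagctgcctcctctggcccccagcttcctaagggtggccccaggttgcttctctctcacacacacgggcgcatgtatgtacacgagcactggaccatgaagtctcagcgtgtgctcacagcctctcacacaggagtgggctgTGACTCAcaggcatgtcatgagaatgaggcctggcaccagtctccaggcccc

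The windows differed in kind. S100A6 and S100A10 had 70.0% and 71.2% G or C and 24 CG pairs each, against medians of 58.0% and 11 over 35116 RefSeq windows of this length. S100A6 held the GC box word at 90, 79, and 75 bases before the start, the last of these overlapping its neighbour, and S100A10 held it at 167 bases. S100A4 held the TATA word at 31 bases and 7 CG pairs, and S100A2 held the AP-1 word at 52 bases and 4 CG pairs. These words also occurred in windows not printed, the TATA word in S100A13 and the AP-1 word in S100A3. The GC box word was also in windows of S100A3, S100A11, S100A13, and S100A16, and the NF-Y word in S100A3, S100A13, and S100A16. Of all windows, 10.7% held the TATA word, 6.57% the AP-1 word, 42.6% the GC box word, and 32.01% the NF-Y word. A match describes these letters and is neither a site nor a cause.

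All 8 genes were expressed in the “Vec” cells of every line, with a lowest mean of 4.36 CPM for S100A3 in DBTRG-05MG. Between pairs of lines, 24 of 48 values (8 genes in 6 pairs) had an adjusted p under 0.05 from limma. Such calls were common among all 12327 genes, at 39.8% between T98G and U87MG, 38.6% between U251MG and U87MG, 44.1% between DBTRG-05MG and U87MG, 32.3% between U251MG and T98G, 41.2% between DBTRG-05MG and T98G, and 31.6% between DBTRG-05MG and U251MG. The S100A genes called in the same order of pairs were 5, 3, 4, 2, 6, and 4 of 8, so the number of calls is no result about these genes.

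S100A6 (calcyclin), which binds CACYBP and annexins, was the most abundant of the 8 in every group. Its “Vec” means were 12623 ± 385 CPM in DBTRG-05MG, 11617 ± 3665 in U87MG, 8280 ± 4939 in T98G, and 7817 ± 189.9 in U251MG (SD, n = 3). S100A2, a mainly nuclear member, averaged 70.5 ± 20.8 CPM in U87MG, 58.5 ± 19.4 in DBTRG-05MG, 50.2 ± 17.8 in U251MG, and 30.7 ± 16.4 in T98G. None of the 6 pairs of lines passed the threshold for either gene.

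S100A4 (metastasin), which binds nonmuscle myosin and is known for its part in motility, set T98G apart. Its “Vec” libraries read 282, 115, and 261 CPM in T98G, 44.6, 35.3, and 31.1 in DBTRG-05MG, 30.2, 48.2, and 28.4 in U251MG, and 13.3, 11.9, and 11.99 in U87MG. Every T98G library was above every library of the other lines, and every U87MG library was below. T98G exceeded U87MG by 3.99 ± 0.51 (SE) on the log2 scale (adjusted p = 1.15e-06 from limma). In the same fit U251MG minus T98G was -2.70 (adjusted p = 0.000232) and DBTRG-05MG minus T98G was -2.67 (adjusted p = 0.000212). U251MG and DBTRG-05MG did not differ beyond their spread (log2 difference 0.03 ± 0.51). The excess of DBTRG-05MG over U87MG (1.31, adjusted p = 0.0416) was not called without U87MG “Vec” replicate 1, 2, or 3, U87MG “WWOX” replicate 1, or DBTRG-05MG “Vec” replicate 1 or 2, where the lowest value was 1.16.

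S100A3, a cysteine-rich member known from hair, had another order. “Vec” libraries read 70.7, 105, and 89.8 CPM in U87MG, 22.3, 6.39, and 27.4 in T98G, 7.95, 11.4, and 12.1 in U251MG, and 5.50, 2.06, and 5.53 in DBTRG-05MG. The U87MG libraries stood above all others and the DBTRG-05MG libraries below all others. The log2 difference from U87MG was -2.43 for T98G, -3.19 for U251MG, and -4.49 for DBTRG-05MG (SE 0.65, adjusted p from limma 0.00461, 0.000413, and 6.00e-06). DBTRG-05MG was also below T98G (log2 difference -2.06, adjusted p = 0.0145), a call kept in 21 of the 24 fits with a library left out, whereas neither differed from U251MG past the threshold.

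S100A13, which takes part in the export of FGF1 and IL1A, was highest in DBTRG-05MG. “Vec” libraries read 184, 169, and 129 CPM there, 31.8, 33.5, and 54.2 in U87MG, 41.9, 17.9, and 34.8 in T98G, and 25.6, 37.7, and 27.3 in U251MG. DBTRG-05MG lay above all libraries of the other lines, by 1.81 to 2.34 on the log2 scale (SE 0.40), each past the threshold. The other 3 lines gave no call among themselves.

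S100A10 (p11), which does not need calcium and pairs with annexin A2, and S100A11 (calgizzarin), a partner of annexin A1, were high in U87MG and DBTRG-05MG. S100A10 averaged 3218 ± 912 CPM in U87MG “Vec”, 1810 ± 112 in DBTRG-05MG, 738 ± 149.8 in U251MG, and 539 ± 37.4 in T98G, and 5 of 6 pairs passed, all but U251MG against T98G. The call between DBTRG-05MG and U87MG was lost without replicate 2 of U87MG “Vec” (log2 difference -0.79, adjusted p = 0.0524 from limma). S100A11 averaged 3330 ± 688 CPM in U87MG, 2577 ± 322 in DBTRG-05MG, 1284 ± 54.9 in T98G, and 1126 ± 266 in U251MG (SD, n = 3). Its 4 calls set the former pair of lines against the latter. The call between DBTRG-05MG and T98G (log2 difference 0.79, adjusted p = 0.0456 from limma) was kept in 10 of the 24 fits with a library left out.

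S100A16, a widespread member also found in astrocytes, averaged 1008 ± 90.4 CPM in DBTRG-05MG “Vec”, 617 ± 76.8 in U87MG, 497 ± 78.0 in U251MG, and 162 ± 48.1 in T98G. T98G was below each other line past the threshold, and DBTRG-05MG was above U251MG by 0.98 (adjusted p = 0.0455 from limma), a call kept in 11 of the 24 fits with a library left out.

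**Figure D1:**
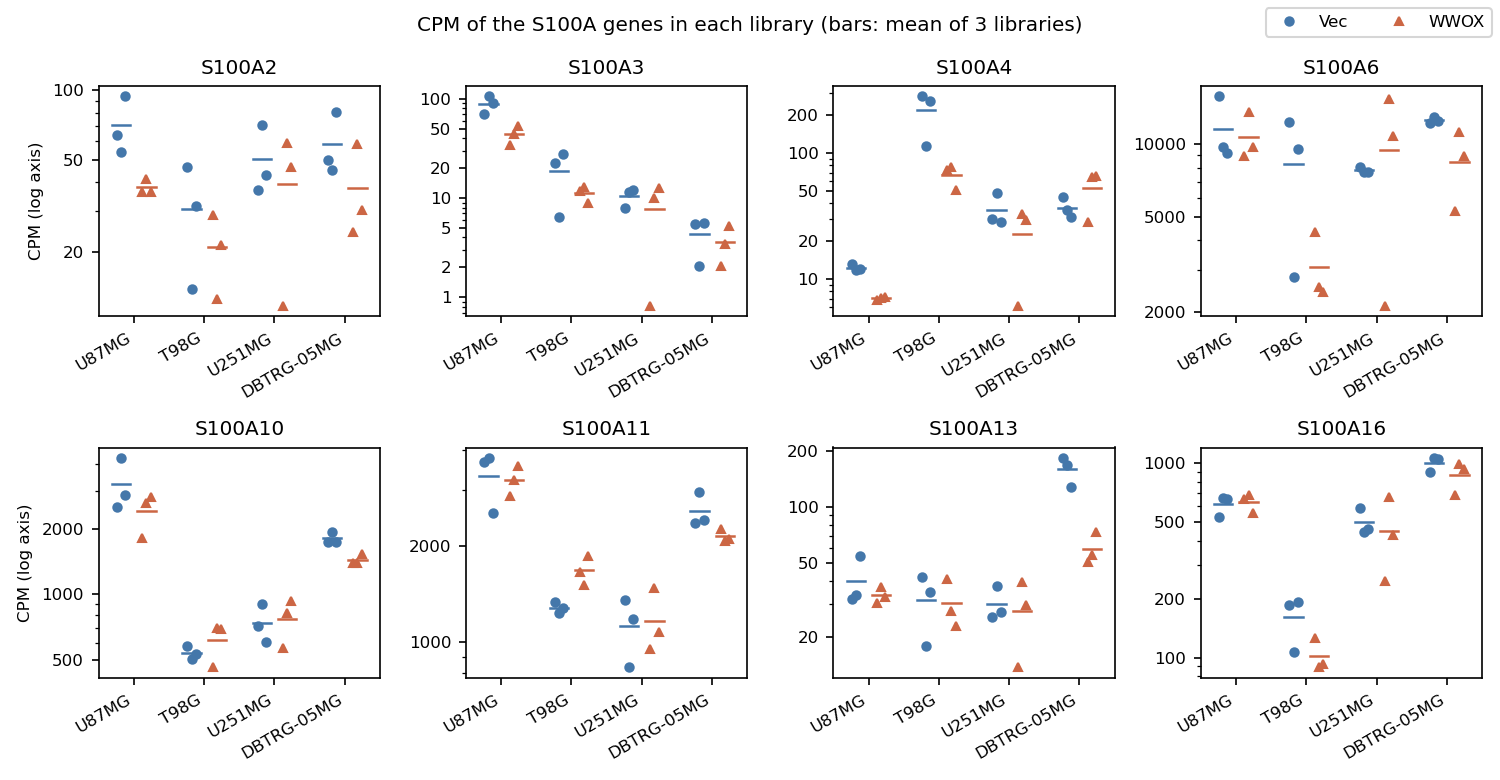
CPM on a log axis of each S100A gene in the 24 libraries, by cell line, with circles for “Vec”, triangles for “WWOX”, and a bar at the mean of 3 libraries. S100A4 of T98G “Vec” (115 to 282 CPM) and S100A13 of DBTRG-05MG “Vec” (129 to 184 CPM) stand above the other “Vec” cells.

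In the comparison of “WWOX” with “Vec”, 0 of the 8 S100A genes were called by limma in any line. Among all genes tested, U87MG had 3.2% called (395 genes), T98G 1.14% (140), DBTRG-05MG 1.02% (126), and U251MG 0.316% (39). Of the 32 gene and line values, 2 had an unadjusted p under 0.05, S100A4 in T98G and S100A13 in DBTRG-05MG, both lower in “WWOX”. At this threshold 11.5% of all genes passed in U87MG, 11.5% in T98G, 7.63% in DBTRG-05MG, and 11.5% in U251MG, so 2 of 32 did not exceed the background. With edgeR and limma-voom on the tags recovered from the CPM, no S100A gene was called either, and with DESeq2 these same 2 values were called, where it called 2.21% of all genes in T98G and 1.05% in DBTRG-05MG. Of the 32 values of log2FC, 27 were negative, where 51.9%, 54.1%, 49.5%, and 49.0% of all genes were negative in U87MG, T98G, U251MG, and DBTRG-05MG. The median over the 8 genes was -0.36, -0.48, -0.25, and -0.36 in this order of lines, whereas the median over all genes was -0.00, -0.04, 0.00, and 0.00. In T98G the median of the 8 was -0.996 without replicate 2 of “Vec”, -0.17 without replicate 1, and -0.15 without replicate 3. It was -0.21 in U87MG without replicate 1 of “WWOX”, and -0.55 in DBTRG-05MG without replicate 3 of “WWOX”. The direction in U251MG depended on single “WWOX” libraries. Without replicate 1, 1 of the 8 values there was negative in place of 6. The median there was then 0.23, and 22 of the 32 values were negative. Without replicate 2, all 8 values there were negative, with a median of -0.90. Without the 3 libraries described above as standing apart, the median there was -0.25.

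S100A4 had the largest difference of the 32. In T98G the “WWOX” libraries read 73.8, 77.3, and 50.7 CPM, and all lay under the “Vec” libraries at 282, 115, and 261. The log2FC was -1.62 ± 0.51 (SE), with an adjusted p of 0.147 from limma. Without replicate 2 of T98G “Vec”, the lowest of them, log2FC was -2.11 and adjusted p 0.0332. Without replicate 1 of U251MG “WWOX”, log2FC stayed at -1.62 and adjusted p was 0.0254. Of all genes, 3.2% and 1.61% were called in these fits. With all 24 libraries DESeq2 made the call (log2FC -1.72, adjusted p = 0.0313), whereas edgeR and limma-voom did not.

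The other lines differed in S100A4. In U87MG the values were also apart, 13.3, 11.9, and 11.99 CPM in “Vec” against 6.85, 7.13, and 7.20 in “WWOX” (log2FC -0.83 ± 0.51, adjusted p = 0.642 from limma). U251MG gave 30.2, 48.2, and 28.4 CPM against 6.17, 32.8, and 29.5 (log2FC -0.91), which overlapped, with replicate 1 of “WWOX” far below the rest. Without that library log2FC was -0.077, and without replicate 2 of “WWOX” it was -1.54. DBTRG-05MG had the only positive value, with 44.6, 35.3, and 31.1 CPM in “Vec” and 28.3, 64.3, and 66.1 in “WWOX” (log2FC 0.36 ± 0.51, adjusted p = 0.964). Its “WWOX” replicate 1 lay under all “Vec” libraries and replicates 2 and 3 lay above them, and with each library left out log2FC ranged from 0.098 to 0.80.

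S100A13 was the other gene with a low unadjusted p. DBTRG-05MG “Vec” read 184, 169, and 129 CPM and “WWOX” 50.7, 55.0, and 73.5, without overlap. The log2FC was -1.48 ± 0.40 and the adjusted p 0.0980 from limma. Under 38 alternatives it ranged from -1.70 to -1.34 and was called in 7 of them. These included an adjustment for the GC content and length of transcripts (log2FC -1.36, adjusted p = 0.00496, with 1.37% of all genes called) and the omission of replicate 1 or 2 of U251MG “WWOX” (adjusted p 0.0285 and 0.0251, with 1.22% and 1.14% of all genes called). It was also called with a model per line, which called 0.865% of all genes, and with the adjustment and the replicate block together, which called 0.811%. In U87MG, T98G, and U251MG the log2FC of S100A13 was -0.27, -0.01, and -0.24, each smaller than its SE of 0.40, and libraries overlapped.

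S100A6, S100A2, S100A3, and S100A16 share the 96.8 kb stretch with S100A4 and S100A13. S100A6 read 12415, 2811, and 9614 CPM in T98G “Vec” and 4310, 2543, and 2426 in “WWOX” (log2FC -1.22 ± 0.64, adjusted p = 0.481 from limma). Replicate 2 of “Vec” sat among the “WWOX” libraries, so the groups overlapped. In U251MG the “WWOX” libraries read 2132, 15422, and 10853 CPM, against 8036, 7706, and 7709 in “Vec”. They spanned both sides of “Vec”, and the log2FC of -0.15 ± 0.64 changed sign with edgeR (0.39) and DESeq2. In DBTRG-05MG all “WWOX” libraries (5301, 11216, and 8925 CPM) were under “Vec” (12294, 13047, and 12528 CPM), with log2FC -0.70 and adjusted p 0.930. With each library left out, this log2FC ranged from -0.92 to -0.36. In U87MG the libraries overlapped (log2FC -0.15).

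S100A2 and S100A3 were separate in U87MG alone. S100A2 read 63.8, 54.0, and 93.9 CPM in “Vec” and 36.5, 41.5, and 36.2 in “WWOX” (log2FC -0.91 ± 0.53, adjusted p = 0.602 from limma). S100A3 read 70.7, 105, and 89.8 CPM in “Vec” and 34.3, 43.8, and 53.1 in “WWOX” (log2FC -1.08 ± 0.65, adjusted p = 0.626). In the remaining lines libraries overlapped, with log2FC from -0.74 to -0.45 for S100A2 and from -0.92 to -0.28 for S100A3. With each library left out, the values in T98G ranged from -1.01 to -0.073 for S100A2 and from -1.21 to -0.037 for S100A3, and those in U251MG crossed 0 for both genes. S100A3 in replicate 1 of U251MG “WWOX” read 0.823 CPM, the lowest value of any of the 8 genes. S100A16 overlapped in all lines, with log2FC from -0.63 in T98G to -0.02 in U87MG, the latter of positive sign for CPM as deposited.

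S100A10 and S100A11 had log2FC between -0.46, for S100A10 in U87MG, and 0.38, for S100A11 in T98G. In T98G S100A11 read 1341, 1231, and 1280 CPM in “Vec” and 1664, 1514, and 1858 in “WWOX”. The “WWOX” libraries were all higher, but the log2FC of 0.38 ± 0.31 had an adjusted p of 0.696 from limma. In DBTRG-05MG both genes were lower in every “WWOX” library, S100A10 with log2FC -0.40 ± 0.30 and S100A11 with -0.32 ± 0.31 (adjusted p 0.895 and 0.936). Neither was separate in U87MG or U251MG.

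**Figure D2:**
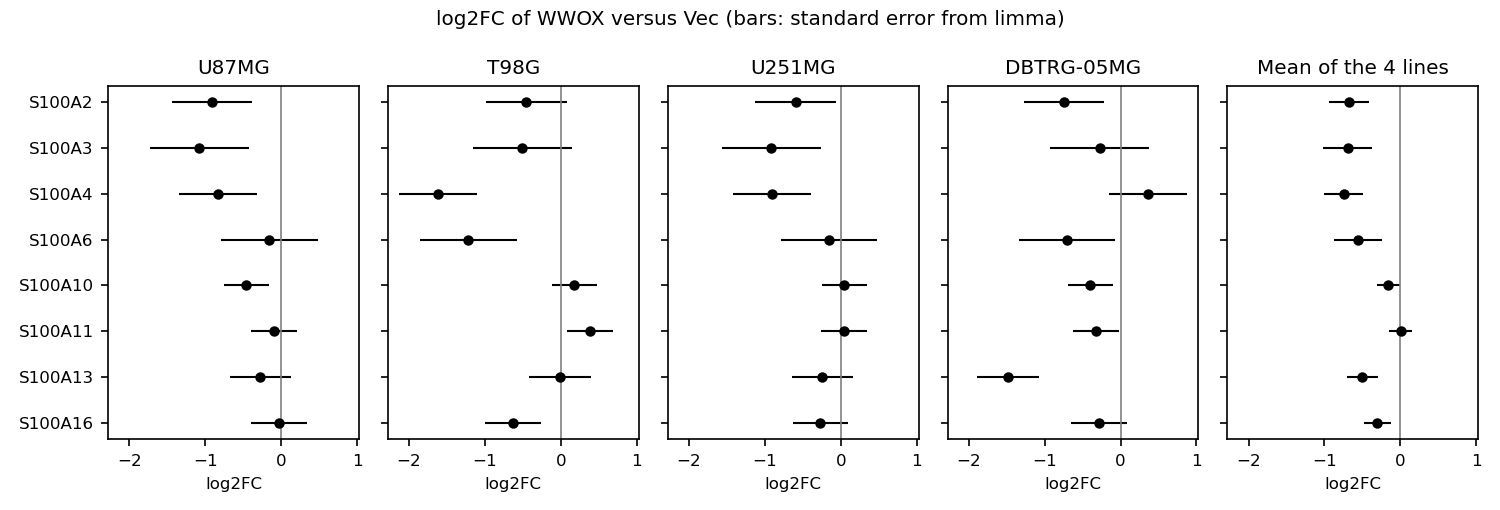
log2FC of “WWOX” versus “Vec” (x axis, log2 scale) for each S100A gene in each cell line and as the mean of the 4 lines, with bars for the standard error from limma. Values of S100A4 in T98G (-1.62) and S100A13 in DBTRG-05MG (-1.48) lie farthest from 0, and S100A4 in DBTRG-05MG is at 0.36.

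Counted by overlap alone, all “WWOX” libraries were below all “Vec” libraries for 4 of 8 S100A genes in DBTRG-05MG, 3 in U87MG, 1 (S100A4) in T98G, and none in U251MG. They were above them for S100A11 in T98G alone. In the order U87MG, T98G, U251MG, and DBTRG-05MG, the percentages below among all genes tested were 9.73, 9.21, 5.01, and 10.3, and those above were 7.74, 7.001, 5.43, and 9.46. The S100A genes of a library deviated together, as given further on, and are not independent cases.

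Whether a line differed from the others was tested directly, as its log2FC minus the mean of the other 3. By limma 0 S100A genes were called, where 2.39% of genes were called for U87MG, 1.54% for T98G, 0.422% for U251MG, and 0.982% for DBTRG-05MG. At an unadjusted p under 0.05, limma gave 0, 0, 0, and 2 S100A genes in the same order, where 9.92, 12.8, 11.4, and 7.1% of all genes passed, and edgeR, limma-voom, and DESeq2 called none. The 2 were S100A4 and S100A13 in DBTRG-05MG. S100A4 differed by 1.48 ± 0.59 (adjusted p = 0.465 from limma), with log2FC 0.36 in DBTRG-05MG and from -1.62 to -0.83 in the other lines. S100A13 differed by -1.31 ± 0.47 (adjusted p = 0.336, and 0.0273 after the adjustment for GC content and length, where 1.19% of all genes were called, or 0.633% with the replicate block). The positive sign of S100A4 in DBTRG-05MG thus rested on overlapping libraries.

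As the mean of the 4 lines, 0 S100A genes were called by limma, against 1.78% of all genes, and by edgeR, limma-voom, and DESeq2 the count was also 0. The mean log2FC was -0.75 ± 0.26 for S100A4, -0.69 ± 0.33 for S100A3, -0.68 ± 0.27 for S100A2, and -0.50 ± 0.20 for S100A13, these 4 with an unadjusted p under 0.05 (as 15.4% of all genes had) and adjusted p from 0.156 to 0.311. S100A6 was at -0.56, S100A16 at -0.30, S100A10 at -0.16, and S100A11 at 0.00. Under the 37 alternatives run for it, the mean ranged from -0.87 to -0.42 for S100A3 and from -0.76 to -0.32 for S100A6. The range was -0.45 to -0.19 for S100A16 and -0.24 to -0.085 for S100A10. Without replicate 2 of U251MG “WWOX”, 6.9% of all genes were called in the mean and 3 S100A genes, S100A2, S100A4, and S100A13 (adjusted p 0.0374, 0.0228, and 0.0314 from limma).

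Without all 3 libraries that stood apart, S100A16 joined them as the fourth call in the mean, where 4.78% of all genes were called. Replicate 3 is then the lone U251MG “WWOX” library and is assumed to vary like the other groups, which bears on the mean and on each difference between lines. In T98G, with 8.55% of all genes called, 3 S100A genes were called, S100A4 (log2FC -2.11, adjusted p = 0.000813 from limma), S100A6 (-1.95, 0.00469), and S100A16 (-0.98, 0.0163). In DBTRG-05MG, with 1.65% of all genes called, 1 was called, S100A13 (-1.48, 0.00250). The difference of S100A4 between DBTRG-05MG and the other lines was 1.49 in this fit (adjusted p = 0.0386), where 1.4% of all genes were called. For T98G, with 5.62% of all genes called, the difference was called for S100A4 (-1.80, 0.00980) and S100A6 (-1.74, 0.0295).

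**Figure D3:**
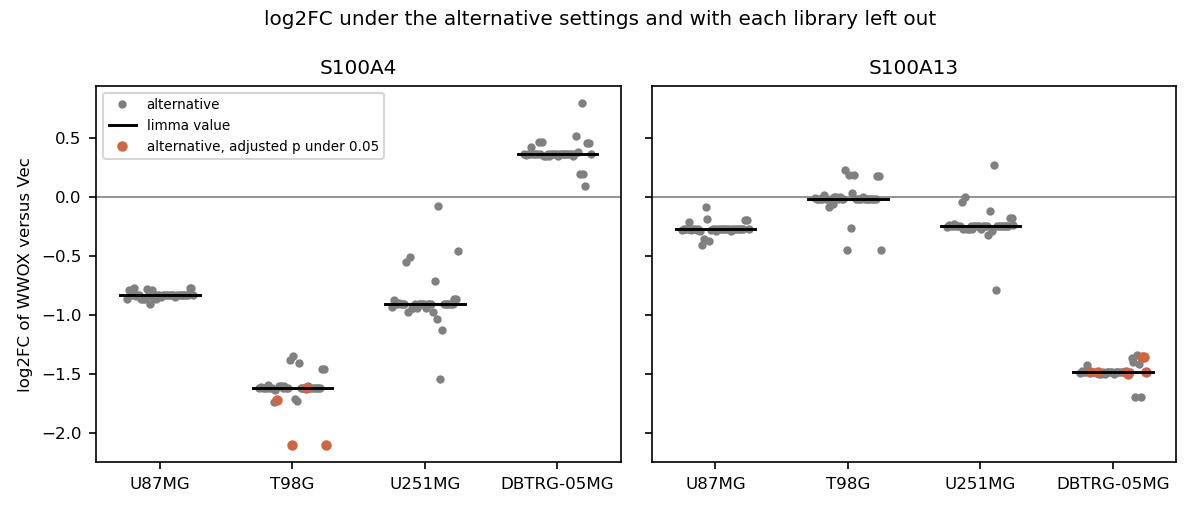
log2FC of “WWOX” versus “Vec” (y axis) of S100A4 and S100A13 in each line, with a bar for the limma value and a point for each of 38 alternatives, colored where adjusted p was under 0.05. S100A13 in DBTRG-05MG stayed between -1.70 and -1.34, whereas S100A13 in T98G and U251MG lay on both sides of 0.

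The 6 genes of the 96.8 kb stretch deviated together between replicates of the same group. Deviations of each library from its group mean correlated at 0.73 to 0.91 over the 24 libraries (median 0.83 of 15 pairs of genes), against 0.31 to 0.70 (median 0.52) for these 6 with S100A10 or S100A11. Between S100A10 and S100A11 the correlation was 0.55. This division was noticed in the values. In replicate 2 of T98G “Vec” the 6 genes had a median deviation of -1.05 on the log2 scale, and S100A10 and S100A11 a mean of -0.23. In replicate 1 of U251MG “WWOX” the values were -1.62 and -0.52, and in its replicate 2 1.22 and 0.63. Correlations were lower without these 3 libraries. Without them, and without replicate 3 of U251MG “WWOX”, then alone in its group, 20 libraries remained, and the 6 genes correlated at 0.17 to 0.63 (median 0.38) and with S100A10 or S100A11 at -0.43 to 0.37 (median 0.00).

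Other measures deviated in the same libraries. The 10% of genes highest in GC content deviated by a median of -0.49 and the lowest 10% by 0.46 in replicate 2 of T98G “Vec”. These medians were -0.50 and 0.47 in replicate 1 of U251MG “WWOX” and 0.73 and -0.66 in its replicate 2. The gap between both medians correlated with the median of the 6 genes at 0.83 over 24 libraries and at 0.63 without the 3. Outside the S100A genes of the set, 637 genes had GC content (47.5% to 58.6%) and transcript length (at most 1172 bases) in their range. The correlation of these 637 with the median of the 6 genes ranged from -0.80 to 0.92, with a median of 0.45. Over all genes the median correlation was 0.01. Deviating with the 6 genes was thus not particular to the 96.8 kb stretch. The deviation of WWOX ran opposite, at -0.88 over 24 libraries, where 39 of 12327 genes were lower, and at -0.38 without the 3 libraries. The part of base composition and of WWOX in this pattern was not tested.

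**Figure D4:**
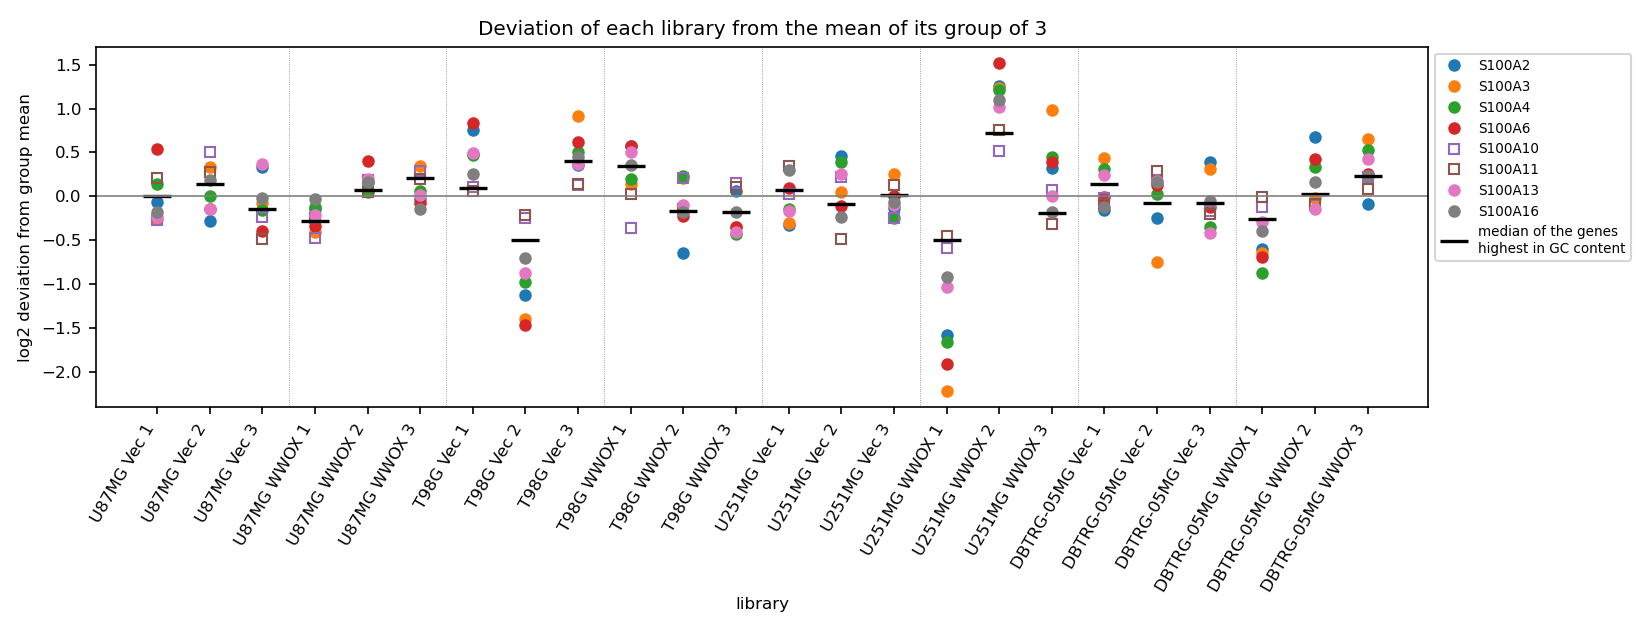
Deviation of each S100A gene from the mean of its group (y axis, log2) in the 24 libraries, with filled circles for the 6 genes of the shared stretch, open squares for S100A10 and S100A11, and a black dash for the median of the 10% of genes highest in GC content. Replicate 2 of T98G “Vec” and replicates 1 and 2 of U251MG “WWOX” deviate most in the median of the 6 genes and in the dash.

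Across the 8 group means the S100A genes did not follow a single order. S100A10 and S100A11 were most alike (r = 0.91), then S100A2 and S100A6 (0.85) and S100A6 and S100A16 (0.81), whereas S100A4 ran against S100A10 (-0.71). The gene nearest in pattern among all tested was LMNB1 for S100A2 (0.96), GSTZ1 for S100A3 (0.99), RPS25 for S100A4 (0.97), and OXSR1 for S100A6 (0.97). For the others it was H1-1 for S100A10 (0.99), ERCC5 for S100A11 (0.98), MCHR1 for S100A13 (0.98), and NIPSNAP1 for S100A16 (0.99). No S100A gene was among the 3 nearest genes of another. These correlations run over 8 means that share a cell line in pairs, and with 12327 genes to choose from the nearest is bound to be close.

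Within 500 kb of the start of an S100A gene of the set, 20 other genes were tested, 7 around S100A10 and S100A11 and 13 around the other 6. Of the 20, FLG (filaggrin, an epidermal barrier gene) was called, higher in DBTRG-05MG with log2FC 1.25 (adjusted p = 0.00413 from limma, but 0.203 with edgeR). The median log2FC of the 13 was -0.01, -0.18, -0.04, and -0.07 in U87MG, T98G, U251MG, and DBTRG-05MG. Their deviations correlated with the median of the 6 genes at -0.60 to 0.77 (median 0.24).

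The rest of the family was mostly near 0. Of 12 other S100 genes, S100B and S100P alone were tested, and the other 10, among them S100A1, S100A8, and S100A9, did not exceed 2.75 CPM in any library. S100P, an S100 gene outside the cluster, rose in T98G from 5.31 ± 4.09 to 19.0 ± 1.79 CPM, with log2FC 1.98 and an adjusted p of 0.0302 in limma, a call that edgeR, limma-voom, and DESeq2 did not make (adjusted p 0.289, 0.0968, and 0.516). It was also lost without any 1 T98G library other than replicate 2 of “Vec”, at log2FC of 1.74 or more. The adjusted p of S100P from limma was 0.110 with the replicate block, 0.119 with a model per line, and 0.226 with a pseudocount of 0.1. S100B was not called in any line, and in U251MG it averaged 254 CPM in “Vec” and 135 in “WWOX” (log2FC -1.25, adjusted p = 0.492).

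Of the 12 annexins, membrane proteins that several S100 proteins bind, 9 were tested and 2 were called by limma, 1 higher in T98G and 1 lower in U251MG, beside 1.14% and 0.316% of all genes called there in either direction. ANXA6 fell in U251MG from 274 ± 52.9 to 95.6 ± 16.8 CPM (log2FC -1.52, adjusted p = 0.00652, and 0.102 without replicate 3 of U251MG “Vec”). All of edgeR, limma-voom, and DESeq2 made this call, but the adjusted p was 0.0951 with the replicate block and 0.868 with a model per line. ANXA4 rose in T98G from 176 ± 7.94 to 334 ± 60.3 CPM (log2FC 0.91, adjusted p = 0.0471), a call kept in 5 of the 24 fits with a library left out and made by DESeq2, but not by edgeR (adjusted p 0.0657), limma-voom (0.0667), the replicate block (0.184), or a model per line (0.190). ANXA2, the partner of S100A10, and ANXA1, the partner of S100A11, were not called by limma, and in U251MG their log2FC was -1.07 (adjusted p = 0.128) and -1.001 (adjusted p = 0.374), but DESeq2 called ANXA2 there (log2FC -0.98, adjusted p = 0.0416).

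Of 18 other partners and receptors, 16 were tested and 0 were called by limma, edgeR, limma-voom, or DESeq2 in any line. In limma 6 values over the 4 lines had an unadjusted p under 0.05, beside the shares of all genes given for each line above, among them FGF1, a growth factor, in T98G (log2FC -1.13, adjusted p = 0.197). Without the 3 libraries that stood apart, limma called 2 of the 16 in T98G, where it called 8.55% of all genes, CACYBP higher (log2FC 0.93, adjusted p = 0.0432) and FGF1 lower (log2FC -1.46, adjusted p = 0.0125). AGER, the receptor of several secreted S100 proteins, did not exceed 0.297 CPM. Of 28 other EF-hand genes, 25 were tested and 0 were called by limma, edgeR, or limma-voom, with 14 values over the 4 lines at an unadjusted p under 0.05 in limma, beside the same shares. EFHD1, a mitochondrial protein, in U251MG (log2FC -1.25, adjusted p = 0.0522) and SRI (sorcin) in T98G (log2FC 0.57, adjusted p = 0.144) had the smallest p, and DESeq2 called these 2. With limma, EFHD1 was called in 5 and SRI in 1 of the 24 fits with a library left out, and without the 3 libraries that stood apart SRI was called as well (log2FC 0.57, adjusted p = 0.0351).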

How the data were processed

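CAGE-Seq reads of 24 libraries were aligned by the authors to hg38 with STAR, and tags were counted with SAMtools. The submitters' processing notes also list limma 3.42. The deposited values are CPM, tags scaled to 1000000 per library, for 43037 genes, of which 43033 were matched to a symbol. In every library 100% of the values were whole multiples of 1 tag (within 0.1 tag), so whole tags were recovered from the deposited CPM. Depth sets a floor, since 0 tags allow up to 3 tags, or 0.177 to 0.279 CPM, which covers counting error only.

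Factors from the trimmed mean of M-values (TMM) rescaled the CPM, and 0.5 was added before log2, so fold changes of low genes are understated. A gene entered if any 1 library reached 5 CPM, and the fit was made in limma 3.58.1 (trend, 8 groups, 16 residual degrees of freedom) in R 4.3.3. Values of p are two-sided and adjusted by the Benjamini-Hochberg method over 12327 genes, with a threshold of 0.05. Values behind ± are SD for CPM and SE for log2FC. Positions, GC content, and length came from GENCODE 44 and sequences from RefSeq.

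Besides leaving out each of the 24 libraries, 11 alternatives were tried: CPM without rescaling, scaling by the median of ratios, other pseudocounts (0.1 and 1), all genes above 0, only genes whose mean reached 5 CPM, a model per line, a replicate block, and edgeR 4.0.16, limma-voom, and DESeq2 1.42.0 on recovered tags. After the data had been seen, 3 were added: a spline correction for GC content and transcript length, the same with the block, and the omission of 3 libraries. Named are all 8 members, WWOX, up to 4 genes past the threshold of each list or otherwise the 2 with the smallest p, and the genes nearest in pattern. A result that the rule names is not reported here. ANXA1, ANXA2, AGER, CACYBP, S100B, the cell type markers other than CDH5, and the S100 genes near 0 were named beyond this rule, for their known roles or for a call. Members and lists were chosen with earlier results of these data known.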

Additional observations from a re-analysis of the deposited data

How the results depend on the processing

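The 24 calls between “Vec” lines numbered 20 to 27 when each library was left out. For “WWOX” versus “Vec”, the S100A genes called in T98G numbered 1 with DESeq2, 3 without the 3 libraries that stood apart, and 0 to 1 with each library left out. In DBTRG-05MG 1 was called with a model per line, with DESeq2, with the GC content and length correction, alone or with the replicate block, and without the 3 libraries, and 0 to 1 with each library left out. For the difference of a line from the others, 2 were called in T98G without the 3 libraries, and 1 in DBTRG-05MG with the GC correction, alone or with the block, and without the 3 libraries. The mean of the 4 lines gave 0 to 3 with each library left out and 4 without the 3 libraries. U87MG and U251MG stayed at 0 under every alternative run. Where the cause of a change is not in the construction of the setting, it was not tested. Same-numbered libraries of a line correlated in their deviations at -0.546 to 0.51, with 4 of 12 pairs over 0.1. A pairing by number was thus not shown. This check cannot exclude one, since the deviations within a group sum to 0 and are tied to each other. With the replicate block alone 0 S100A genes were called. The block and the model per line were not run for the pairs of “Vec” lines.

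Signs turned in the following cases. Without the 3 libraries, U251MG gave 0.066 for S100A3, 0.24 for S100A6, and -0.27 for S100A11, and the mean of S100A11 was -0.10. S100A6 in U251MG was 0.39 with edgeR and 0.45 with DESeq2. S100A13 was 0.014 in T98G with median of ratios scaling, 0.18 with the GC correction, with or without the block, and 0.0037 in U251MG with DESeq2. S100A16 in U87MG was 0.038 for CPM as deposited and 0.081 with the GC correction, with or without the block, and its DBTRG-05MG difference was -0.0035 with edgeR and -0.023 with DESeq2. WWOX in U251MG was 0.0066 for CPM as deposited, 0.079 with edgeR, 0.0053 with limma-voom, and 0.077 with DESeq2.

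With each library left out, log2FC crossed 0 in these cases. The range was -1.26 to 0.19 for S100A2, -1.56 to 0.19 for S100A3, -0.94 to 0.80 for S100A6, -0.25 to 0.34 for S100A10, -0.37 to 0.27 for S100A11, -0.79 to 0.27 for S100A13, -0.85 to 0.19 for S100A16, and -0.30 to 0.23 for WWOX in U251MG. The range was -0.43 to 0.20 for S100A2, -0.51 to 0.15 for S100A6, and -0.13 to 0.22 for S100A16 for the DBTRG-05MG difference. The range was -0.65 to 0.046 for S100A3 in DBTRG-05MG. It was -0.36 to 0.098 for S100A6, -0.33 to 0.028 for S100A11, and -0.13 to 0.051 for S100A16 in U87MG. It was -0.11 to 0.058 for S100A11 for the mean of the 4 lines. It was -0.44 to 0.23 for S100A13 in T98G.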
